A study of Mus musculus with 6 samples.

Results

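H3K27ac, an acetylated lysine of histone H3 found at active promoters and enhancers, was followed by ChIP-seq at 7 genes used as markers of the pluripotent state: Dppa2, Dppa4, Dppa5a, Utf1, Fbxo15, L1td1 and Tdh. The peaks of a gene were those overlapping its body or the 10 kb on either side (GENCODE vM21, GRCm38). All 7 genes had at least 1 peak. They held 18 different peaks of the 31131 in the series, and they are 7 of the 13788 protein-coding genes with a peak in such a window. The cells were O4AID ESCs, mouse ESCs of the 129SV strain. Both groups share the same alleles: they are Oct4-/-, with a TetOFF Oct4 transgene kept silent by doxycycline, CAG Oct4AID, which is OCT4 fused to an auxin-inducible degron, and CAG Tir1, a rice ubiquitin ligase component. The last 2 sit in piggyBac insertions behind the constitutive CAG promoter. All cells grew on gelatin in N2B27 with PD03, Chiron and mLIF. The 3 uninduced libraries came from untreated cells and the 3 IAA libraries from cells given 500 μM IAA, the plant hormone auxin, for 1.5 h, which leads to destruction of the tagged protein. The comparison asks how acetylation at these genes stood shortly after OCT4 was removed. Each library is an independent immunoprecipitation (IP) of 1 cell line, and nothing in the labels says that the IPs came from separate cultures, so p-values measure the spread between IPs. OCT4 protein was not measured in these files, and a change in cell number cannot be told apart from a change within cells.

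The 7 genes are active in ESCs and early germline or preimplantation cells and are shut down as cells differentiate, which is why they serve as markers. DPPA2 and DPPA4 are SAP-domain proteins that bind chromatin as a pair and keep developmental promoters poised, and their genes lie side by side. UTF1 is a chromatin-associated transcription factor whose gene has a well-known enhancer just past its 3′ end that is bound by OCT4 and SOX2. DPPA5A is a KH-domain RNA-binding protein and L1TD1 an RNA-binding protein derived from a LINE-1 open reading frame. FBXO15 is an F-box protein, the substrate-binding part of an SCF ubiquitin ligase, long used as a reporter gene in reprogramming. TDH, threonine dehydrogenase, starts the breakdown of threonine to glycine that mouse ESCs use to feed one-carbon metabolism.

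Levels are given in RPKM, reads per kilobase of peak, further divided by the size of the library, and the value of a gene is the mean RPKM of its peaks weighted by their length. Changes of a gene are on log2 RPKM and those of a peak on log2(RPKM + 0.1), always IAA minus uninduced. The libraries held 31634480 to 39547452 reads, of which 6.63% to 7.12% fell in peaks in uninduced cells and 4.05% to 5.15% after IAA. RPKM divides by the whole library, so a lower share of reads in peaks and a lower RPKM at most peaks are 1 observation. The median tested peak changed by -0.55 on the log2 scale. Without a spike-in, a lower yield of the IAA IPs and a loss of acetylation at most peaks cannot be told apart. Peaks that reached 0.5 RPKM in the uninduced or the IAA mean were tested, 26457 in number, and all 18 peaks of the 7 genes were among them. Marker genes of several cell types were looked up for a peak, and all 14 pluripotency factors listed had one. So did 3 of 8 trophoblast markers (Gata3, Hand1 and Tfap2c), 1 of 5 primitive endoderm markers (Gata6) and 2 of 5 fibroblast markers (Col1a1 and Vim). Cdx2, Eomes, Gata4, Sox17 and Postn were among those with none. The share of all protein-coding genes with a peak was not worked out, so these counts are a description and no test of cell identity.

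An OCT4 site from published ChIP-seq of ESCs lies within 1 kb of 13 of the 18 peaks (72.2%), against 17.6% of all tested peaks. This mark comes from other cells, so it shows where OCT4 can bind and not where it was bound here. Sequence patterns were searched on both strands: the octamer ATGCNAAT read by OCT4, TTGTNATGC, the core of the composite SOX2-OCT4 element, and the ESRRB pattern TCAAGGTCA. None of the 18 peaks held any of them in its central 300 bases, where 2.26%, 0.567% and 0.839% of all tested peaks did. The search was then widened, after this was seen, to 1 kb on either side of each peak. The octamer was found there at 9 of the 18 peaks and in 26.2% of all tested peaks, the composite core at 3 of 18 and in 6.91%, and the ESRRB pattern at 3 of 18 and in 10.1%. The searched stretches of neighbouring peaks overlap, so 1 site can count for more than 1 peak. The 3 patterns had 10, 3 and 2 different sites, and both L1td1 peaks were counted from the same octamers. Among OCT4-marked tested peaks, the kind that makes up most of the 18, these shares were 42.3%, 13.3% and 13.5%. In the 300 bases around the annotated gene starts of RefSeq (GRCm38.p6), the shares were 3.15%, 0.731% and 0.423%. Each match is a run of letters and not a measured binding site.

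The stretches below show where those letters lie beside peaks described later. They are the plus strand of GRCm38 read 5′ to 3′ and hold no annotated exon. Capitals mark the match, and where the pattern is on the minus strand they read as its reverse complement.
L1td1, intron, chr4:98727984-98728234, 2 octamers on the minus strand in the gap between its 2 peaks: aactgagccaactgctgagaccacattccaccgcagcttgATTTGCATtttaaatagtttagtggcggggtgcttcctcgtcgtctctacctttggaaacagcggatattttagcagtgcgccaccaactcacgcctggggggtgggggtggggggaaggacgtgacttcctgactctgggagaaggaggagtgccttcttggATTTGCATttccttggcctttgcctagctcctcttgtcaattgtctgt
Utf1, downstream of the gene, chr7:139945645-139945733, 1 composite core on the minus strand, 226 bases before its downstream peak: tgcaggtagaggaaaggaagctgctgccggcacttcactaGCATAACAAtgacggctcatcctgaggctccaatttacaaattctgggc
Dppa4, upstream of the first exon, chr16:48283619-48283707, 1 composite core on the minus strand, 154 bases before the peak at its start: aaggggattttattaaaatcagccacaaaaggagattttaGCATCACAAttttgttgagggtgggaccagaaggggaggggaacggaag
Dppa2, intron, chr16:48304355-48304643, 2 octamers on the plus strand, the first 184 bases past the peak at its start: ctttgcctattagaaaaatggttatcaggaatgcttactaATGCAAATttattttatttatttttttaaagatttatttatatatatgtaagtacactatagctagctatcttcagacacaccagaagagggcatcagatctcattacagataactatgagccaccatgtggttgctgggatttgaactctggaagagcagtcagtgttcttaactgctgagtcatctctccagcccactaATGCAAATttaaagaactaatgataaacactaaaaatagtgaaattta
Dppa5a, intergenic upstream, chr9:78374422-78374509, 1 octamer on the plus strand, 14 bases past an upstream peak: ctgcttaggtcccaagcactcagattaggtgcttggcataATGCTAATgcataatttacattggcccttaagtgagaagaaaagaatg
Tdh, intron, chr14:63507606-63507693, 1 octamer on the plus strand, 655 bases from its only peak, which has no OCT4 mark: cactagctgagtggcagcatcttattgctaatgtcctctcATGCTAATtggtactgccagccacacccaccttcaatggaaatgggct

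The highest uninduced level and the largest fall among the 7 genes were both at L1td1 (chr4:98726734-98738480, plus strand). Its level was 6.58, 5.83 and 5.996 RPKM in uninduced replicates 1, 2 and 3 and 2.86, 2.47 and 2.02 RPKM in IAA replicates 1, 2 and 3. No IAA library reached the uninduced range. The means were 6.14 ± 0.398 and 2.45 ± 0.423 RPKM (SD, n = 3 each), so 39.9% of the uninduced level was left, a log2 change of -1.34 ± 0.15 (SE, limma, adjusted p = 2.58e-06).
L1td1 has 2 peaks, both OCT4-marked. The peak over its start (chr4:98726382-98727932) overlaps the UTR exon and went from 6.66 ± 0.480 to 2.81 ± 0.464 RPKM (SD, n = 3). The shorter peak in an intron (chr4:98728427-98728964) read 4.79, 4.41 and 4.70 RPKM in the uninduced libraries and 1.63, 1.55 and 1.02 RPKM in the IAA libraries, with 30.2% left. Its log2 change on log2(RPKM + 0.1) was -1.68 ± 0.18 (SE, limma), and only 0.0945% of all tested peaks had a lower value. The log2 ratio of the start peak to the intronic peak was 0.45 to 0.59 in uninduced libraries and 0.85 to 1.21 after IAA, with no overlap. By an exact permutation over the libraries, two-sided, p was 0.1, and 3 against 3 cannot give less.

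Dppa5a (chr9:78367052-78368177, minus strand) has 5 peaks in its window. Its level was 5.37, 5.01 and 5.11 RPKM in the uninduced libraries and 3.07, 2.83 and 2.38 RPKM after IAA, with no overlap. The log2 change was -0.91 ± 0.15 (SE, limma, adjusted p = 0.000118). This value rests in part on the 3 upstream peaks, which Ooep shares: it was -1.10 over the gene body only and -1.27 with a window of 5 kb.
The 5 Dppa5a peaks form 2 groups. Of the near pair, the one 361 bp downstream of the gene (chr9:78365780-78366691) read 4.88, 4.12 and 3.65 RPKM before and 1.83, 1.85 and 1.33 RPKM after IAA, a log2 change of -1.29 ± 0.18 (SE), and the one inside the gene (chr9:78367459-78368006, coding exon) changed by -1.04 ± 0.18. The 3 upstream peaks, 5468 to 9467 bp from the gene, were higher to begin with, at 5.93 to 6.56 RPKM, and changed by -0.74 to -0.85. The farthest of them lies in Ooep, an oocyte gene, and is the only one without an OCT4 mark.
Of the 32-base words in the peak inside Dppa5a, 83.0% occur again elsewhere in GRCm38, against 0% to 18.8% in the other 17 peaks. The pseudogenes Dppa5b and Dppa5c on the same chromosome carry peaks of their own that hold at most 4 and 6 reads in any library and were below the threshold. How reads were shared between the copies was not tested, so the level inside the gene is uncertain.

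Fbxo15 (chr18:84934782-84981473, plus strand) stood close to Dppa5a, at 5.22, 4.91 and 4.83 RPKM in the uninduced libraries and 2.85, 3.06 and 2.44 RPKM after IAA. The groups did not overlap, and the log2 change was -0.85 ± 0.15 (SE, limma, adjusted p = 0.000225). Among its 4 peaks, the one over the start of the gene (chr18:84934645-84936024) was the highest of all 18 peaks in uninduced cells, at 6.92 ± 0.327 RPKM (SD, n = 3), and fell to 3.71 ± 0.377 RPKM. The intronic peak 10358 bp into the gene had the largest change, -1.09 ± 0.17 (SE). The smallest, -0.61 ± 0.16, was at the peak over the start of Timm21, a mitochondrial import gene that overlaps Fbxo15. That peak also covers an annotated transcript start of Fbxo15 inside the gene. The Timm21 peak is the only one of the 4 without an OCT4 mark. Relative to it, the 3 marked peaks stood 0.57 to 0.63 higher (log2) in the uninduced libraries and 0.21 to 0.37 higher after IAA, ranges that do not overlap (exact permutation p = 0.1).

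Dppa2 (chr16:48303908-48319723, plus strand) read 2.76, 2.56 and 2.61 RPKM in the uninduced libraries and 1.83, 1.54 and 1.53 RPKM after IAA. All IAA values were lower, with a log2 change of -0.70 ± 0.16 (SE, limma, adjusted p = 0.00161). Its 3 peaks did not change alike. The peak over its start (chr16:48302882-48304211) read 2.38, 2.57 and 2.31 RPKM before and 1.87, 1.75 and 1.54 RPKM after IAA, the smallest change of the 18 peaks at -0.47 ± 0.18 (SE, limma, adjusted p = 0.0273). That call did not hold without IAA replicate 2 or any 1 of the uninduced replicates, at adjusted p of 0.0505 to 0.103. An intronic peak (chr16:48309361-48309743) went from 3.63, 2.89 and 2.70 RPKM to 1.61, 1.09 and 1.73 RPKM, a change of -1.02 ± 0.20, and the peak over a coding exon behind it (chr16:48310819-48311883) changed by -0.79 ± 0.18. Against the other 2, the start peak stood at -0.39 to 0.01 (log2) in the uninduced libraries and 0.02 to 0.39 after IAA (exact permutation p = 0.1).
Dppa4 (chr16:48283733-48294237, plus strand), is the partner gene 9671 bp upstream. It read 2.13, 2.25 and 2.21 RPKM in the uninduced libraries and 1.51, 1.53 and 1.45 RPKM after IAA, a log2 change of -0.55 ± 0.17 (SE, limma, adjusted p = 0.00674). One of its 2 peaks is the Dppa2 start peak, 8645 bp past its end. The peak of its own (chr16:48283821-48284446), which covers a coding exon near its start, read 1.62, 1.57 and 1.98 RPKM before and 0.749, 1.06 and 1.24 RPKM after IAA and changed by -0.72 ± 0.23 (SE, limma, adjusted p = 0.0125, or 0.0537 without uninduced replicate 3). Taken by that peak alone, the log2 change of Dppa4 was -0.78, beside -0.70 at Dppa2 and -0.75 at Utf1, so that its place as the smallest change of the 7 holds only with the shared peak counted.

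Utf1 (chr7:139943789-139945112, plus strand) read 1.90, 1.79 and 1.86 RPKM in the uninduced libraries and 1.33, 1.17 and 0.863 RPKM after IAA. The groups did not overlap, with a log2 change of -0.75 ± 0.21 (SE, limma, adjusted p = 0.00429). The peak 807 bp downstream of the gene (chr7:139945919-139946253), OCT4-marked, read 2.34, 2.26 and 1.62 RPKM before and 1.05, 0.827 and 0.947 RPKM after IAA. It changed by -1.05 ± 0.22 (SE, adjusted p = 0.0013). The unmarked peak in the coding exons (chr7:139943979-139944546) read 1.65, 1.50 and 2.001 RPKM before and 1.50, 1.37 and 0.813 RPKM after IAA. It was the only one of the 18 that did not pass the test, at -0.49 ± 0.23 (SE, limma, adjusted p = 0.0693), and it passed without IAA replicate 1. The 2 Utf1 peaks rest on few reads, 10 to 44 in a library, and the difference between their changes was within the spread of the libraries (exact permutation p = 0.2).

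Tdh (chr14:63492347-63509092, minus strand) has 1 peak (chr14:63508308-63509401), over its start and UTR exon, with no OCT4 mark. It read 1.76, 2.11 and 1.82 RPKM in the uninduced libraries and 1.26, 0.861 and 0.765 RPKM after IAA. The groups did not overlap, 50.8% was left, and the log2 change of -1.01 ± 0.22 (SE, limma, adjusted p = 0.00129) exceeded that of Dppa5a, at -0.91, but not when Dppa5a was taken over its gene body only or a window of 5 kb.

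**Figure D1:**
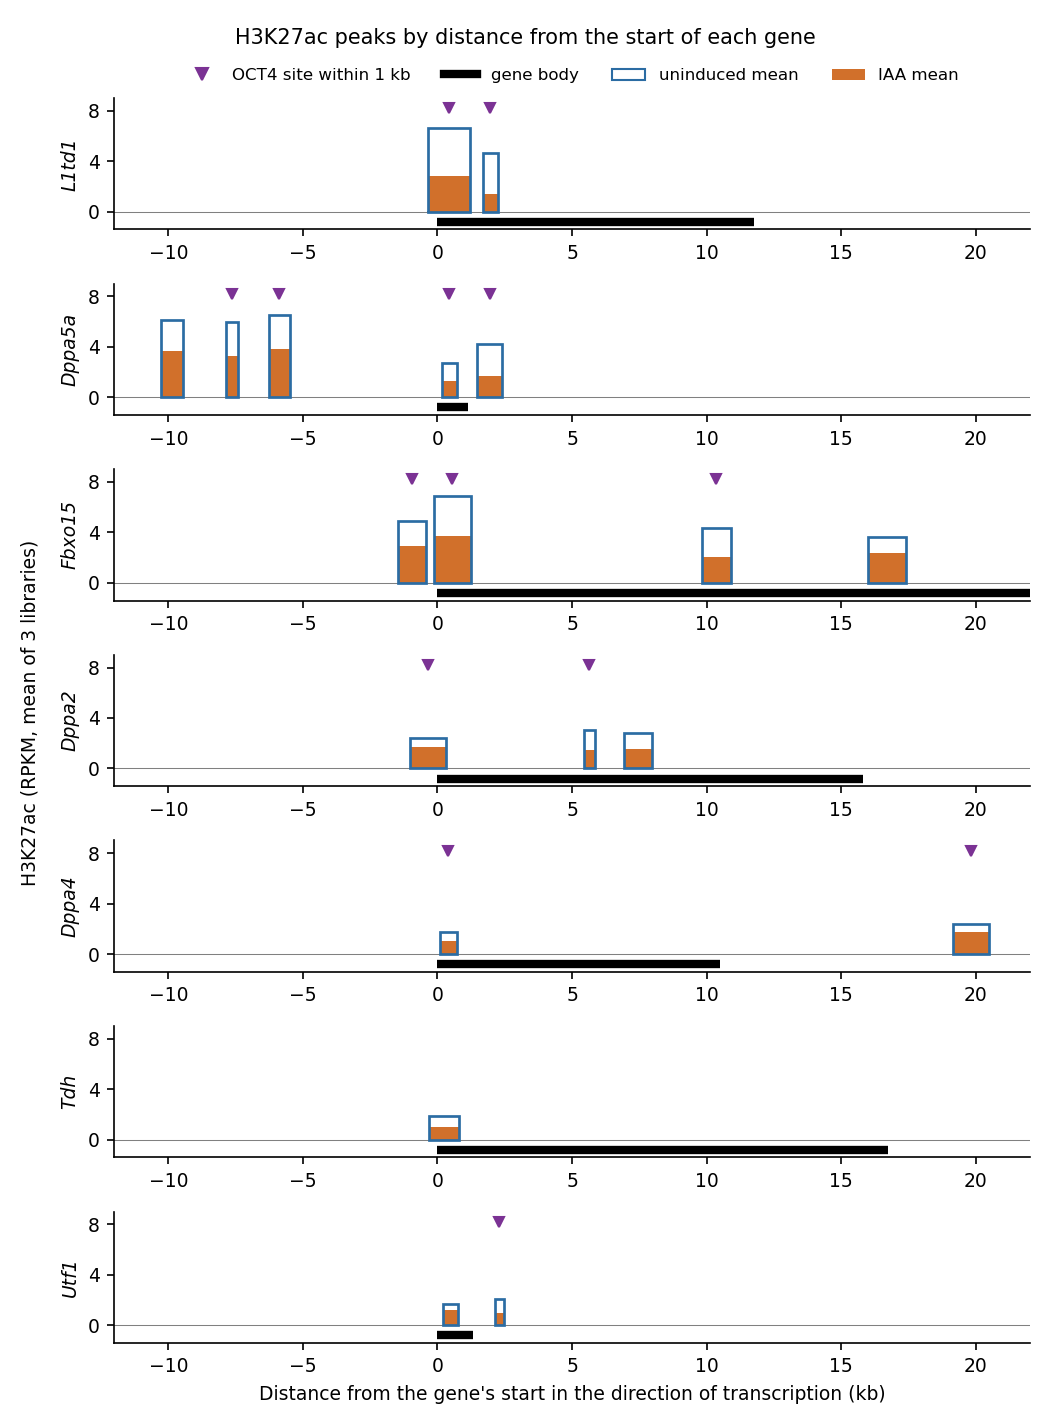
Position of each peak relative to the start of its gene (kb, in the direction of transcription) and its H3K27ac in RPKM, with blue outlines for the mean of 3 uninduced libraries and orange fill for the mean of 3 IAA libraries. Triangles mark peaks within 1 kb of an OCT4 site, and at all 18 peaks the orange fill stays below the blue outline; the body of Fbxo15 runs past the end of its axis.

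**Figure D2:**
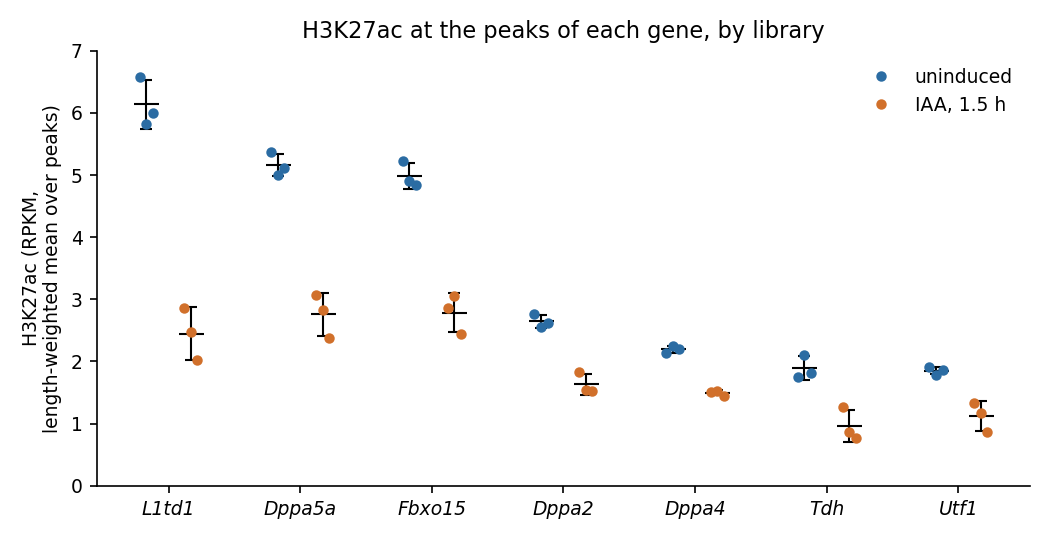
H3K27ac of each gene (length-weighted mean RPKM over its peaks) in the 3 uninduced (blue) and 3 IAA (orange) libraries, with mean and SD. L1td1, Dppa5a and Fbxo15 start between 4.83 and 6.58 RPKM and the other 4 genes between 1.76 and 2.76 RPKM, and in no gene do the colours overlap.

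By level, then, the genes fell in the order L1td1, Dppa5a, Fbxo15, Dppa2, Dppa4, Tdh and Utf1 in uninduced cells. Dppa5a and Fbxo15, and Tdh and Utf1, overlapped in range and could not be ordered. The median gene stood at 2.71 RPKM, so 3 of the 7 were well above it, and 97.5%, 93.1% and 91.7% of all genes had a lower level than L1td1, Dppa5a and Fbxo15. The level of Dppa5a rests in part on the upstream peaks shared with Ooep: its near pair stood at 4.22 and 2.70 RPKM. The peak of Dppa4 alone stood at 1.72 RPKM, beside 1.89 RPKM at Tdh and 1.85 RPKM at Utf1. Its place above them therefore holds only with the shared peak counted. After IAA, L1td1 at 2.02 to 2.86 RPKM overlapped both Dppa5a and Fbxo15, so the order of the top 3 was not resolved.

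All 7 genes passed the test as lower, and in all 7 the IAA and uninduced libraries did not overlap. These counts have to be read against the whole table: 80.7% of genes were called lower and 78.8% did not overlap in that direction, with 28 genes called higher. The set of all genes was not limited to tested peaks and includes genes with hardly any reads, such as 226 with no peak above 1 read in any library. All peaks of the 7 genes were tested, so shares and medians over all genes are not from genes of like level. By peak, 17 of 18 were lower and 18 of 18 did not overlap, where 68.2% and 71.2% of all tested peaks did the same. All peaks were called from the same uninduced libraries, which leans the counts of genes and peaks toward a fall. How far it does so was not tested, for these genes or for the whole table. All 13 OCT4-marked peaks and 4 of the 5 unmarked ones were lower, against 85.2% of marked and 64.6% of unmarked peaks in the whole table. The sizes of change were set beside the whole table in the same way. The median log2 change was -0.85 over the 7 genes and -0.53 over all genes, and -0.87 over the 18 peaks and -0.55 over all tested peaks. The share of genes with a larger fall was 0.326% for L1td1, 1.88% for Tdh, 3.57% for Dppa5a, 5.28% for Fbxo15, 11.0% for Utf1, 15.5% for Dppa2 and, with the shared peak counted, 44.6% for Dppa4.

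**Figure D3:**
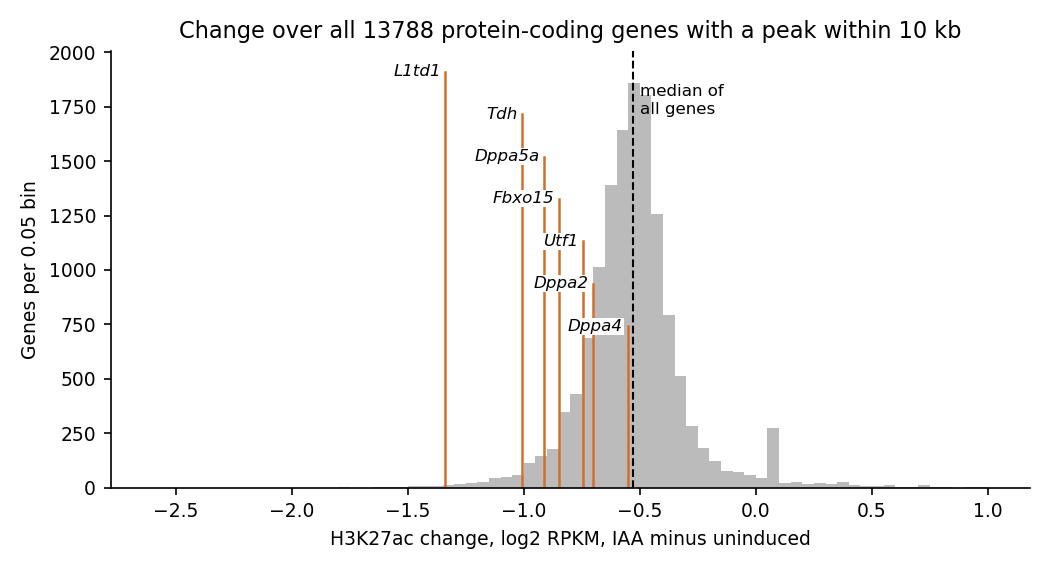
Distribution of the log2 H3K27ac change (IAA minus uninduced) over 13788 genes, in bins of 0.05, with the 7 genes as orange lines and the median of all genes, -0.53, dashed. L1td1 lies at -1.34 in the left tail and Dppa4 at -0.55 beside the median. The narrow column above 0 holds 275 genes, 226 of which have no peak with more than 1 read in any library.

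To set aside a factor common to a whole library, each gene was also expressed relative to that library's median tested peak. Any loss of acetylation that most peaks share is removed with it. On this scale L1td1 went from 1.39, 1.23 and 1.34 in the uninduced libraries to 0.64, 0.56 and 0.49 after IAA, a change of -0.76 ± 0.07 (SE, limma, adjusted p = 0.00532). Dppa5a changed by -0.33 ± 0.06 (SE, adjusted p = 0.04997 by limma, at the edge of the threshold), Fbxo15 by -0.27 ± 0.07 (adjusted p = 0.171) and Tdh by -0.43 ± 0.17 (adjusted p = 0.276). In those 4 genes the IAA libraries lay entirely under the uninduced ones, as they did in 7.51% of all genes. Utf1, Dppa2 and Dppa4 overlapped, with changes of -0.16, -0.12 and 0.03. The median change over all genes on this scale was 0.05. On this scale 2 of the 7 genes, L1td1 and Dppa5a, were called lower by limma, against 0.711% of all genes, and 3 of the 18 peaks, both L1td1 peaks and the one downstream of Dppa5a, against 1.97% of tested peaks. The call on Dppa5a was lost without any 1 of the 6 libraries, at adjusted p of 0.0662 to 0.264, and that on L1td1 without uninduced replicate 1 or 3, at 0.0573 and 0.0559. Of the peaks, the L1td1 intronic one kept its call without each library, the L1td1 start peak lost it without uninduced replicate 1, and the Dppa5a one without uninduced replicate 1 or 2.

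**Figure D4:**
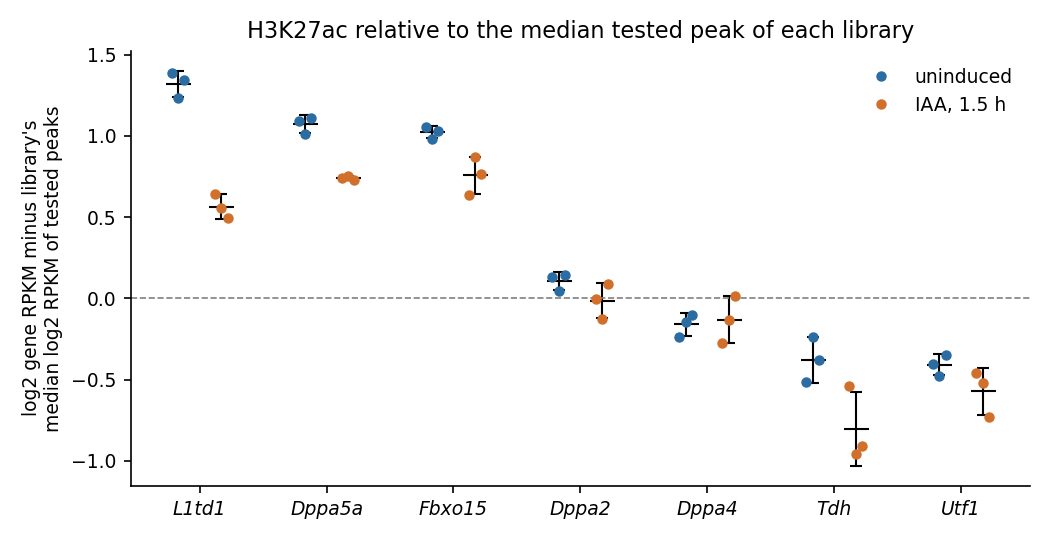
The log2 level of each gene minus the median log2 RPKM of the tested peaks of the same library, for 3 uninduced (blue) and 3 IAA (orange) libraries with mean and SD. The dashed line is the median peak, and L1td1, Dppa5a, Fbxo15 and Tdh show no overlap between the colours.

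The genes were compared with each other within libraries, where depth and the share of reads in peaks cancel. Of 21 pairs of genes, 8 had a log2 ratio whose uninduced and IAA values did not overlap (exact permutation p = 0.1 each, 0.263 after Benjamini-Hochberg adjustment over the 21 pairs). L1td1 was in 5 of them, with Dppa2, Dppa4, Dppa5a, Utf1 and Fbxo15, and in each its log2 change was the more negative by 0.43 to 0.79. The other 3 were Dppa2 and Dppa4 against Dppa5a and Dppa4 against Fbxo15, with the Dppa2 or Dppa4 change the smaller and the shared peak counted for Dppa4. For Tdh, the ratio to L1td1 overlapped between conditions.

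**Figure D5:**
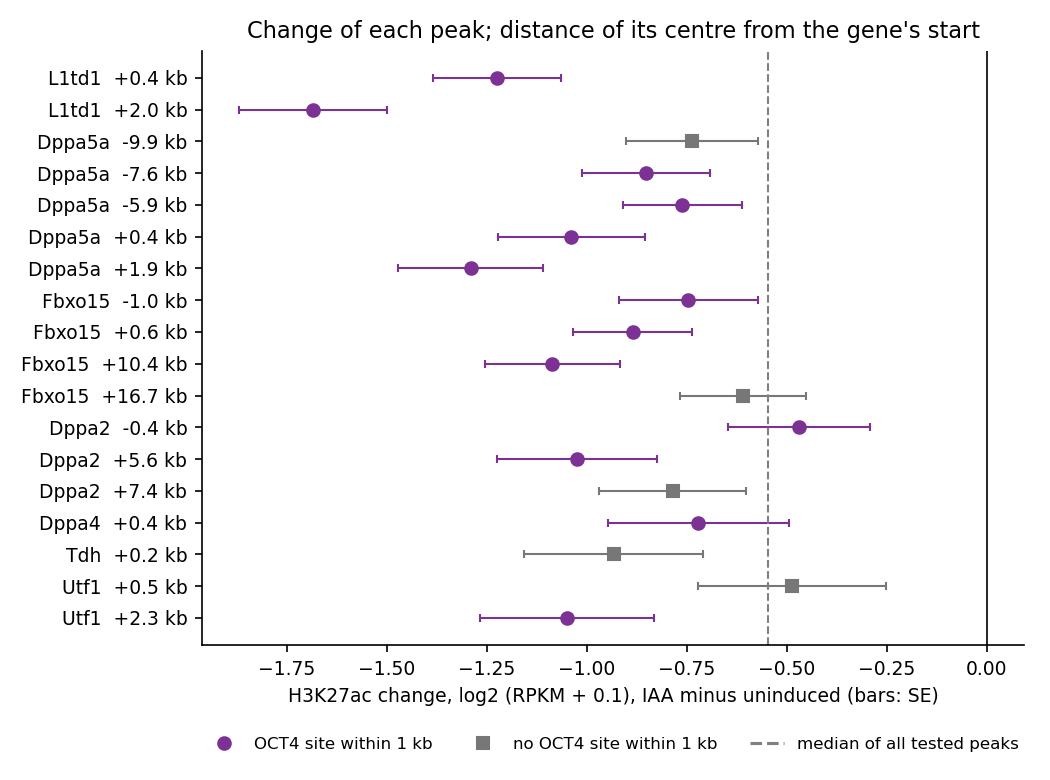
Log2 change of each of the 18 peaks on log2(RPKM + 0.1) with its SE, grouped by gene and labelled with the distance of the peak centre from the start of the gene. Purple circles are OCT4-marked and grey squares unmarked, and the dashed line is the median of all tested peaks at -0.55, to the right of which lie only the start peak of Dppa2 and the coding peak of Utf1.

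The OCT4-marked peaks ranged from -1.68 to -0.47 with a median of -1.02, and the 5 unmarked peaks from -0.93 to -0.49 with a median of -0.74. Over all tested peaks the medians were -0.71 and -0.52. Relative to the median peak of its library, the medians of the 13 and the 5 were -0.47 and -0.18, with 12 and 4 of them below 0. Within genes that have both kinds, the ratio of marked to unmarked did not overlap between conditions at Fbxo15 (above), while at Dppa5a, Utf1 and Dppa2 the values of the libraries overlapped, with changes of -0.22, -0.60 and 0.20 in its log2 value (exact permutation p = 0.2 each). The 12 peaks within 1 kb of an annotated start had a median of -0.77 and the 6 others a median of -1.07. These others are the L1td1 and Fbxo15 intronic peaks, the Utf1 and Dppa5a downstream peaks and 2 upstream of Dppa5a, and all 6 carry the mark, so distance from a start and the mark cannot be told apart in them.

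Lists of related genes gave the setting, and their counts stand beside the 80.7% of all genes called lower. All 14 pluripotency factors were lower, with a median log2 change of -0.99, from -1.94 at Nr0b1, an orphan nuclear receptor, to -0.40 at Pou5f1, the Oct4 gene, whose endogenous alleles are disrupted in these cells. Of 16 other stem cell markers, 11 had a peak and 9 were lower, with a median of -0.62. The smallest change was -0.36 at Lin28a, an RNA-binding protein, which did not pass the test (limma, adjusted p = 0.068). Lefty1, Dppa3, Eras, Tcl1 and Dnmt3l had no peak. Tdh stood at -1.01, and of 13 genes of threonine, glycine and one-carbon metabolism 12 were lower, with a median of -0.51. The smallest change among them was -0.26 at Gcat, the enzyme that acts next after TDH, which did not pass (limma, adjusted p = 0.12). Fbxo15 stood at -0.85, and the 8 SCF ubiquitin ligase genes, all lower, ranged from -0.80 at Fbxo5 to -0.39 at Skp1a, the former within 1 SE of Fbxo15. The 12 housekeeping genes had a median of -0.47, with 11 lower, and the smallest change was -0.19 at Pgk1, which did not pass (limma, adjusted p = 0.195). Relative to the median peak, the medians of the 5 lists were -0.41, -0.03, 0.08, 0.02 and 0.12 in the order given. The median over all genes on that scale was 0.05 and not 0, so only the pluripotency factors stood far from it. Below 0 were 13 of 14 pluripotency factors and 7 of 11 stem cell markers, and the share of all genes below 0 was not worked out. On that scale 6 pluripotency factors and 2 stem cell markers were called lower, against 0.711% of all genes.

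Neighbouring genes share some of these peaks. All 5 peaks of Ooep are those of Dppa5a, and both peaks of Kndc1 those of Utf1, so these pairs have 1 set of values. The only peak of Gsta2 is the one downstream of Dppa5a, and both peaks of Timm21 are Fbxo15 peaks. Of neighbours with peaks of their own only, Cgas, 62349 bp from Dppa5a, changed by -0.40, Tubgcp2 and Zfp511, 50843 and 91279 bp from Utf1 which share 1 peak, by -0.52, and Cyb5a, 54911 bp from Fbxo15, by -0.51, all near the median of all genes. C18orf63, 98066 bp from Fbxo15, stood at -0.44 and did not pass (limma, adjusted p = 0.215). Kank4, 16418 bp from L1td1, changed by -0.73 and Patj, 7131 bp from it with 2 of its 5 peaks shared, by -1.12, and I0C0044D17Rik, 79995 bp away, by -1.07. Mtmr9, 10559 bp from Tdh with 1 peak of its own, changed by -0.95 and stood at the level of Tdh, 1.89 RPKM before and 0.9504 RPKM after IAA.
Over the 6 libraries, profiles of change were compared, each gene's log2 level less its own uninduced mean, so that genes of unlike level can be close. By Euclidean distance the nearest to L1td1 was Phc1, a Polycomb gene (distance 0.168, log2 change -1.27). For Tdh it was Epdr1 (0.188, -1.02), for Fbxo15 Ttc4 (0.0589, -0.84), for Dppa2 Selenoh (0.0418, -0.71) and for Dppa4 Rimklb (0.0455, -0.56), each the nearest of 13787 genes. For Dppa5a and Utf1 it was the neighbour with the same peaks.

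Precision differs between the genes. The fewest reads behind a peak in any library were 127 at the L1td1 start peak, 159 at the Fbxo15 start peak and 29 at Tdh, but 10 at the Utf1 downstream peak, where counting error alone is 31.6% of the value. Other peaks were thin as well. The fewest were 19 at the L1td1 intronic peak, a counting error of 22.9%, and 15 at the Dppa2 intronic peak. They were 16 at the peak of Dppa4 alone and 21 at the peak inside Dppa5a. A peak was called only from uninduced reads, so acetylation that appears only after IAA would not be listed. The same uninduced libraries were then compared with IAA, so the choice of peaks leans the changes toward a fall. The size of this lean was not tested, and the counts of lower and non-overlapping peaks and genes include it.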

How the data were processed

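H3K27ac ChIP-seq (ThruPLEX libraries; antibody given as ab4792 in the labels and ab4729 in the paper) was analyzed in 6 libraries, grouped by their titles. The authors aligned reads to GRCm38 with Bowtie2 2.3.4.3, deleted duplicate reads with SAMtools, used MACS2 on the pooled uninduced reads to call peaks, and deposited an RPKM per peak and library from DiffBind. MACS2 and DiffBind versions are not given in the sources used here. The pooled columns are the mean over 3 libraries. The ChIP protocol of the paper includes an input sample, but no input is among the 6 libraries analyzed here, and no spike-in is described. All values are whole multiples of 1 read within 0.01, from which reads were recovered. Peak length is end minus start, and starts are printed 1-based.

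Peaks at 0.5 RPKM or more in a pooled column were tested on log2(RPKM + 0.1), and genes on log2 of their length-weighted mean RPKM, with limma 3.58.1 in R 4.3.3 (trend and robust), Benjamini-Hochberg adjustment over all 26457 peaks or 13788 genes, and a threshold of 0.05. The pseudocount understates changes of low peaks. The peak fit was run on simulated data with independent noise and no shift common to a library. The real libraries have such a shift, so that run does not test the calls made here. For single genes, an exact permutation test (two-sided) ran over all 20 labellings (smallest p 0.1). The 7 genes and the gene lists were chosen with earlier results of these data known. All 7 genes are named, with the peak over their start and those with the largest and smallest change, the extremes of each list (some of these are not reported here), up to 3 neighbours within 100 kb and the nearest profile. The pair, within-gene and repeated-word comparisons were added after the data were seen. Alternatives varied the pseudocount, threshold, window, weighting, scaling, limma settings, replicate block and each library.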

Additional observations from a re-analysis of the deposited data

How the results depend on the processing

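The count of 17 lower peaks stayed between 14 and 17 under both other pseudocounts, no threshold or a threshold of 1 RPKM, limma without trend and robust, windows of 5 kb (14 of 15) and 25 kb (17 of 19) and an adjusted p of 0.01 (15). It was 11 of 12 with the gene body only, since fewer peaks are then counted. Leaving out 1 library gave 15 to 18 peaks and 7 genes. Scaling changed the counts most: with each library centred on its median tested peak, or with quantile normalization, 3 of 18 peaks were lower, and with centring 2 of 7 genes. With centring and 1 library left out, the counts were 1 to 4 peaks and 0 to 1 gene, L1td1.

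Samples with the same replicate number did not deviate together (correlations of -0.0143, -0.091 and -0.0614 between peaks), so the numbers were not taken as pairs. With the replicate number as a block, 17 peaks and 7 genes were lower, and with the block and centring 3 peaks and 1 gene.

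The median log2 change of the 7 genes lay between -0.92 and -0.75 over 14 alternatives, and the relative change between -0.32 and -0.21 over 16, all within 1 SD of the libraries. The relative change of Dppa4 turned from 0.03 to -0.013 with unweighted peaks, -0.20 with the gene body only, 5 kb or the nearest-start assignment, -0.12 with 25 kb and -0.00024 against the median gene, and ranged from -0.043 to 0.10 with 1 library left out. That of Dppa5a moved from -0.33 to -0.51 with the gene body only and -0.69 with 5 kb or the nearest-start assignment, where its upstream peaks are not counted, and its log2 change from -0.91 to -1.10 and -1.27. That of Utf1 turned to 0.057 with the gene body only, where its downstream peak is not counted. Reads limit the precision at Utf1, Dppa4 and the intronic peaks of L1td1 and Dppa2, and 3 libraries a group limit every test.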
